A study of Homo sapiens with 6 samples.

Results

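Cell adhesion receptors on the surface of F36P cells were followed through 6 genes: CD44, CDH1 and the integrin genes ITGA4, ITGA5, ITGB1 and ITGB2. They were chosen by name because their RNA levels with and without ERG had been seen in these same libraries, and all 6 were present among the 14821 genes of the deposited count table. F36P is an established human acute erythroid leukaemia line. In the 3 ERG libraries the cells carried the retroviral plasmid MSCV-PIG-AM-ERG, for overexpression of the ETS transcription factor ERG. In the 3 vector libraries they carried the empty plasmid MSCV-PIG, and the labels give their genotype as WT. Cells of both groups had been under 1 µg/ml puromycin for 4 days, and polyadenylated RNA was sequenced in bulk. The sources used here do not give whether the cultures were pools or clones of transduced cells. The labels call the replicates biological without naming cultures or transductions, so a p-value here covers the spread between samples, which may be technical.

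CD44 is the main cell surface receptor for hyaluronan, a sugar polymer of the matrix, and it ties the membrane to the actin skeleton through ezrin, radixin and moesin. CDH1 encodes E-cadherin, which joins like cells to one another through catenins and which, besides epithelia, is found on early red cell precursors. Integrins are pairs of an alpha and a beta chain. ITGA4 and ITGA5 pair with ITGB1 to bind fibronectin (and, for ITGA4, VCAM1), while ITGB2 is the shared beta chain of leukocyte integrins that bind ICAM proteins. ITGB1 and ITGA5 are made by many tissues, so not all of the 4 integrin genes are particular to leukocytes.

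The totals ran from 10257141 to 14803031 counts per library, and the 6 genes together held 9019 to 16322 of them. Levels are in CPM, a gene's counts relative to its library's total, with that total adjusted by the TMM factor. ERG itself stood at 97.4, 103 and 104 CPM in the ERG libraries, against 28.1, 14.6 and 22.4 CPM in the vector libraries (log2 fold change 2.23, SE 0.23). All 12 erythroid markers checked were measured, with a summed level of 3488 to 6529 CPM in the ERG libraries and 10827 to 18730 CPM in the vector libraries. The libraries also divided in another way. ERG replicates 1 and 2 and vector replicate 1 resembled each other (set A), as did ERG replicate 3 and vector replicates 2 and 3 (set B), a division seen in the data and not a group of the study. ERG replicates 1 and 2 were much closer to each other (chi-square 2.2 per degree of freedom) than any other pair (21.6 to 86.9).

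ERG and its relatives bind DNA at sites with the core GGAA. Since CD44 differed between the groups and ITGA4 did not separate them, the 250 bases before the start of each are shown, 5′ to 3′ on the gene's strand, with GGAA or its reverse complement TTCC in capitals (RefSeq, GRCh38.p14). CD44 is from chr11:35138921-35139170, plus strand, and ITGA4 from chr2:181457136-181457385, plus strand.
CD44: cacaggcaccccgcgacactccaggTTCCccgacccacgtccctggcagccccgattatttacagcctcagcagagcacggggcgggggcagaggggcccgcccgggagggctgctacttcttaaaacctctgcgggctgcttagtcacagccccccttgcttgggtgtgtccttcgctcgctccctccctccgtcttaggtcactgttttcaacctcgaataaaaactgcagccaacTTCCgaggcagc
ITGA4: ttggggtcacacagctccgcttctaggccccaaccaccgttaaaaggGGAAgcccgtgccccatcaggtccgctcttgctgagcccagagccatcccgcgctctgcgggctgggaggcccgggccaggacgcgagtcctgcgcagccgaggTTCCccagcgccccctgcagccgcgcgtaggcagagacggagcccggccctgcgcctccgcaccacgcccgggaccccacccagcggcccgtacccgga
Each stretch held 2 matches, beginning at -225 and -12 for CD44 and at -203 and -99 for ITGA4, counted from the RefSeq start. Of 27305 promoters of this length, 92.8% held at least 1 match on either strand, with a median of 3. ITGA5 had 6 and ITGB1 had 4 at the first of its listed starts and 2 at the other. The longer CCGGAAGT, which contains GGAA, was in none of these stretches and in 3.64% of all promoters. RefSeq promoters were matched for 4 of the 6 genes, and CDH1 and ITGB2 were not matched.

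CD44 was high in every ERG library and low in every vector library. Its locus is chromosome 11, 35138870 to 35232402, in hg38 by GENCODE release 29. It stood at 248, 238 and 197 CPM in ERG replicates 1, 2 and 3, against 84.0, 38.7 and 70.9 CPM in vector replicates 1, 2 and 3. The groups did not overlap, and the lowest ERG library was set B's, as was the lowest vector library. The mean was 228 ± 26.7 CPM with ERG and 64.5 ± 23.3 CPM with vector (SD, n = 3 each), a fitted log2 fold change of 1.82 (SE 0.28). Taken within library sets, the difference of log2 CPM was 1.53 in set A and 1.91 in set B. In bulk RNA, more cells with CD44 and more CD44 RNA per cell cannot be told apart, which holds for every level given here.

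CDH1 went the other way. Its locus is chromosome 16, 68737225 to 68835548. It stood at 14.0, 14.0 and 10.2 CPM in the ERG libraries, against 59.0, 88.0 and 46.1 CPM in the vector libraries. All ERG libraries were below all vector libraries, with vector replicate 2 the highest. The mean was 12.7 ± 2.16 CPM with ERG and 64.4 ± 21.5 CPM with vector, 5.06-fold lower with ERG (log2 -2.34, SE 0.27). The same within-set difference was -2.07 in set A and -2.62 in set B. The erythroid marker sum given above was also lower in every ERG library than in any vector library, and its part in the CDH1 values was not tested. Of 13 epithelial markers 6 were analysed, with a summed level of 15.9 to 21.7 CPM with ERG and 25.7 to 54.0 CPM with vector. MUC1 alone separated that sum: the other 5, a split chosen after the values were seen, summed to 10.04 to 11.7 CPM with ERG and 8.15 to 13.5 CPM with vector, which overlap. EPCAM, a defining marker, had only 7 to 29 counts in the 6 libraries. It too was lower in every ERG library (0.547, 1.10 and 1.15 CPM) than in any vector library (2.20, 2.21 and 1.37 CPM). It did not pass (log2 -1.04, edgeR adjusted p = 0.289).

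Per kilobase of annotated exon, the ratio of CD44 to CDH1 was 10.9, 10.5 and 11.9 in the ERG libraries, against 0.879, 0.271 and 0.950 in the vector libraries. In CPM, without division by length, it was 17.7, 17.0 and 19.2 with ERG, against 1.42, 0.439 and 1.54 with vector. CD44 was thus above CDH1 in all ERG libraries on both scales, while in vector replicates 1 and 3 the scale decided which gene was higher. Exons are the union over all annotated transcripts, which for CD44 includes its variant exons, so its level per kilobase is the lower for it.

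The 4 integrin genes overlapped between the groups. ITGA4, on chromosome 2 from 181457202 to 181536187, stood at 237, 242 and 307 CPM in the ERG libraries, against 215, 319 and 295 CPM in the vector libraries. The fitted log2 fold change of ITGA4 was -0.08 (SE 0.19). The libraries of set B were the high ones in both groups. ITGA5, on chromosome 12 from 54395261 to 54419460, stood at 69.4, 71.7 and 19.8 CPM in the ERG libraries, against 62.2, 20.2 and 22.5 CPM in the vector libraries. The fitted log2 fold change of ITGA5 was 0.62 (SE 0.58). Its level followed the library set: set A exceeded set B by 1.82 on the log2 scale among ERG libraries and by 1.54 among vector libraries. Within set A the ERG libraries differed from vector by 0.18, and within set B by -0.10.

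The beta chains were somewhat lower with ERG within each set, though their groups overlapped. ITGB1, on chromosome 10 from 32900319 to 33005792, stood at 414, 416 and 298 CPM in the ERG libraries, against 532, 393 and 337 CPM in the vector libraries. The fitted log2 fold change of ITGB1 was -0.16 (SE 0.22). ITGB2, on chromosome 21 from 44885953 to 44931989, stood at 136, 137 and 89.2 CPM in the ERG libraries, against 218, 134 and 110 CPM in the vector libraries. The fitted log2 fold change of ITGB2 was -0.35 (SE 0.28). The within-set log2 differences were -0.36 (set A) and -0.29 (set B) for ITGB1. For ITGB2 they were -0.67 (set A) and -0.45 (set B). Each set has a lone library of 1 group, so these values have no error of their own. Reads of antisense genes cannot be told apart if strand was not kept, which is not given. Of those that overlap these loci, ITGB2-AS1 was counted with 5 to 39 counts and ITGB1-DT, a divergent transcript, with 4 to 25. Annotated antisense genes also overlap CD44, CDH1 and ITGA5, and these were not in the count table, so the same limit holds there.

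**Figure D1:**
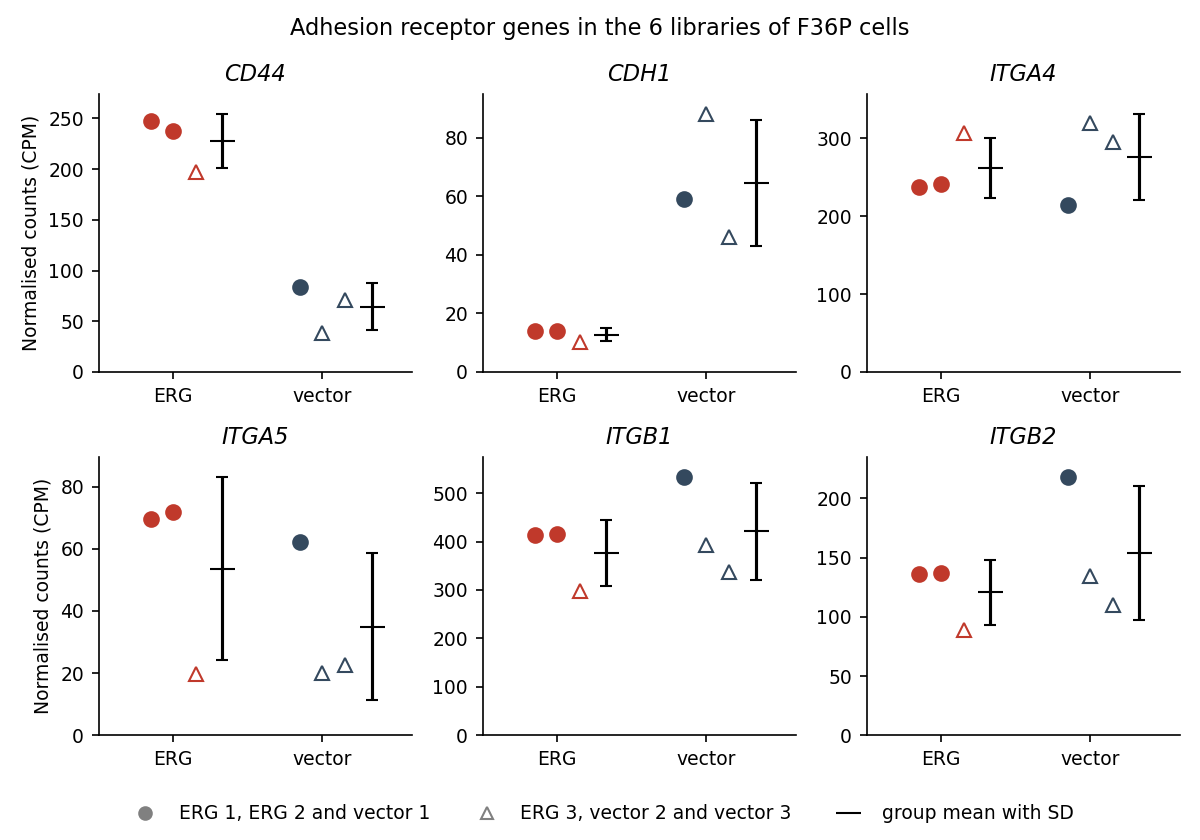
Normalised counts (CPM, linear axes from 0) of the 6 genes, ERG libraries left of vector libraries. Points are libraries, filled circles are set A, open triangles set B, and the bar is the group mean with its SD (n = 3). CD44 and CDH1 separate the groups in opposite directions. In ITGA5 the 3 filled circles, at 62.2 to 71.7 CPM, stand above the 3 triangles, at 19.8 to 22.5 CPM.

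Because the genes were chosen on the ERG contrast, no p is given for them. As a description, 2 of the 6, CD44 (higher) and CDH1 (lower), had an edgeR adjusted p under 0.05, where 2.20% of the 14203 tested genes did (1.47% higher and 0.732% lower). The groups did not overlap for the same 2 of 6, nor for 21.8% of all tested genes (12.3% with ERG above and 9.54% with ERG below). By log2 fold change CDH1 was number 21 from the lowest and CD44 number 194 from the highest of the 14203.

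The order of levels per kilobase placed ITGB1 first and ITGA4 second in both groups. With ERG it went on with CD44 (22.7 ± 2.67 CPM per kb), ITGB2 (17.8 ± 4.03), ITGA5 (7.08 ± 3.87) and CDH1 (2.06 ± 0.349). With vector it went on with ITGB2 (22.7 ± 8.30), CDH1 (10.4 ± 3.48), CD44 (6.45 ± 2.33) and ITGA5 (4.61 ± 3.12). CD44 was thus the third of the 6 with ERG and the fifth with vector. The SD ranges of neighbours overlapped for CD44 and ITGB2 with ERG, and for ITGA4 and ITGB2, CDH1 and CD44, and CD44 and ITGA5 with vector.

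Among the other 12 integrin subunits tested, 1 rose with ERG and 0 fell with edgeR, and DESeq2 called 3 higher and 0 lower. At an unadjusted edgeR p under 0.05 were 7, as were 15.9% of all tested genes. Their median log2 fold change was 0.75, against -0.01 over all tested genes. Over all 14203 tested genes edgeR called 2.20% and DESeq2 called 1006. These values are the background for the counts of every list below. ITGB3, the beta chain of the platelet fibrinogen receptor, was at 453 ± 210 CPM with ERG and 31.1 ± 11.02 CPM with vector (log2 3.86, SE 0.46, edgeR adjusted p = 0.0128). Leaving out ERG replicate 1, ERG replicate 2, vector replicate 2 or vector replicate 3 ended this call (edgeR adjusted p = 0.0716, 0.0729, 0.0743 and 0.0701). ITGB3 is on chromosome 17 from 47253846 to 47311816.

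The alpha chains that pair with ITGB2 had positive log2 differences, while that of ITGB2 was negative. ITGAM stood at 267, 287 and 180 CPM with ERG, against 127, 43.1 and 65.3 CPM with vector, without passing (log2 1.64, SE 0.39, edgeR adjusted p = 0.0865). It did pass with DESeq2 (adjusted p = 0.0011). ITGAX (log2 1.44) and ITGAL (0.53) had ERG libraries above all vector libraries but missed the threshold too, at an edgeR adjusted p of 0.284 and 0.384. The ratio of ITGAM to ITGB2 per kilobase was 2.34, 2.50 and 2.41 with ERG, against 0.696, 0.383 and 0.710 with vector. ITGAM RNA was the more abundant of the pair in all ERG libraries and the less abundant in all vector libraries.

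Of the remaining alpha chains, ITGA9, another partner of ITGB1, was at 109 ± 32.6 CPM with ERG and 48.6 ± 15.3 CPM with vector (edgeR adjusted p = 0.103; DESeq2 adjusted p = 0.00734). ITGA2B, the partner of ITGB3, differed by 0.97 on the log2 scale without passing (edgeR adjusted p = 0.209). ITGAV (log2 0.40), ITGA7 (0.24) and ITGA10 (1.18) did not pass. ITGAE and ITGB7, which pair as a receptor for E-cadherin, differed by -0.48 and -0.87 on the log2 scale and missed the threshold, at an edgeR adjusted p of 0.335 and 0.219, though all ERG libraries were below all vector libraries for both. ITGB4 had a log2 difference of -0.44 and ranged from 1.14 to 5.01 CPM over the 6 libraries.

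**Figure D2:**
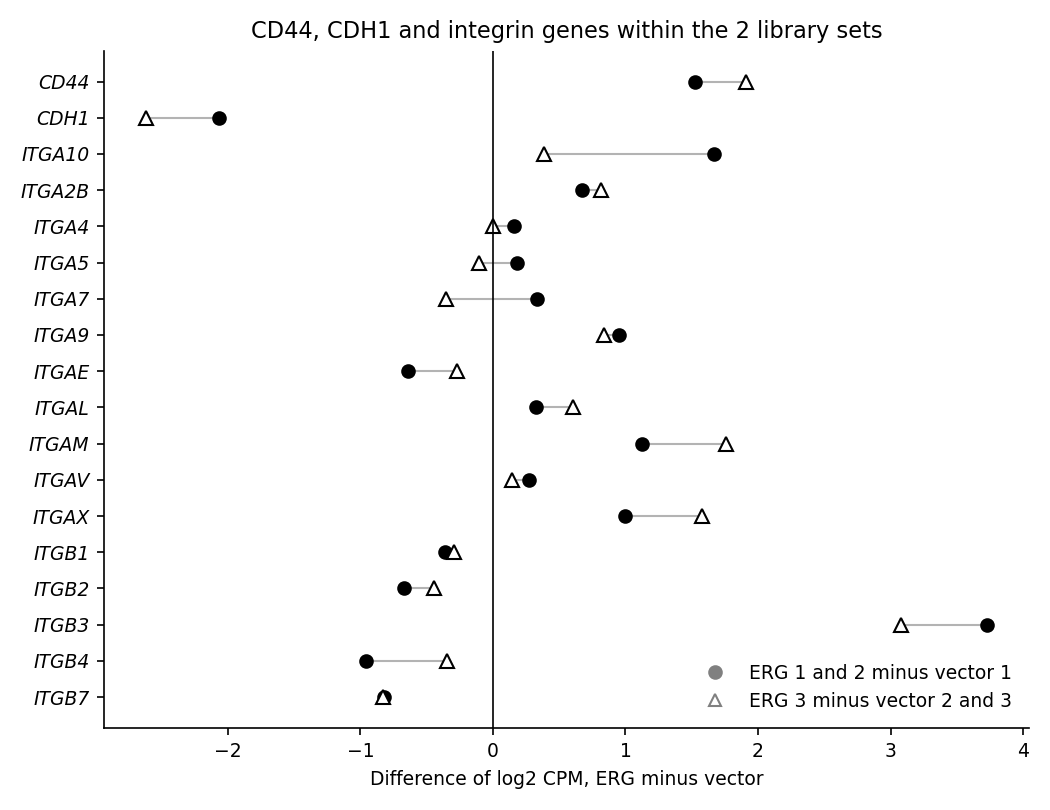
Difference of log2 CPM, ERG minus vector (horizontal axis), of CD44, CDH1 and each integrin gene (vertical axis), for set A (filled circles) and set B (open triangles). CD44 lies at 1.53 and 1.91 and CDH1 at -2.07 and -2.62. ITGA4 and ITGA5 lie between -0.10 and 0.18.

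The shares of the chain genes show where ITGB1 and ITGB2 stood among the integrins of each library. ITGB1 made up 35.6 ± 7.57% of beta chain CPM per kilobase with ERG and 69.3 ± 2.18% with vector (SD, n = 3 each). ITGB2 made up 9.99 ± 1.54% with ERG and 21.9 ± 2.02% with vector, and ITGB3 53.8 ± 9.29% with ERG and 6.96 ± 1.44% with vector. The summed beta chain level holds ITGB3, so a share of ITGB1 or ITGB2 is lower wherever ITGB3 is higher. Among the alpha chains ITGA2B had the largest share in all 6 libraries, 67.8 to 73.5% with ERG and 58.6 to 72.6% with vector. ITGA4 held 7.14, 7.16 and 14.1% with ERG, against 10.1, 27.1 and 19.5% with vector.

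**Figure D3:**
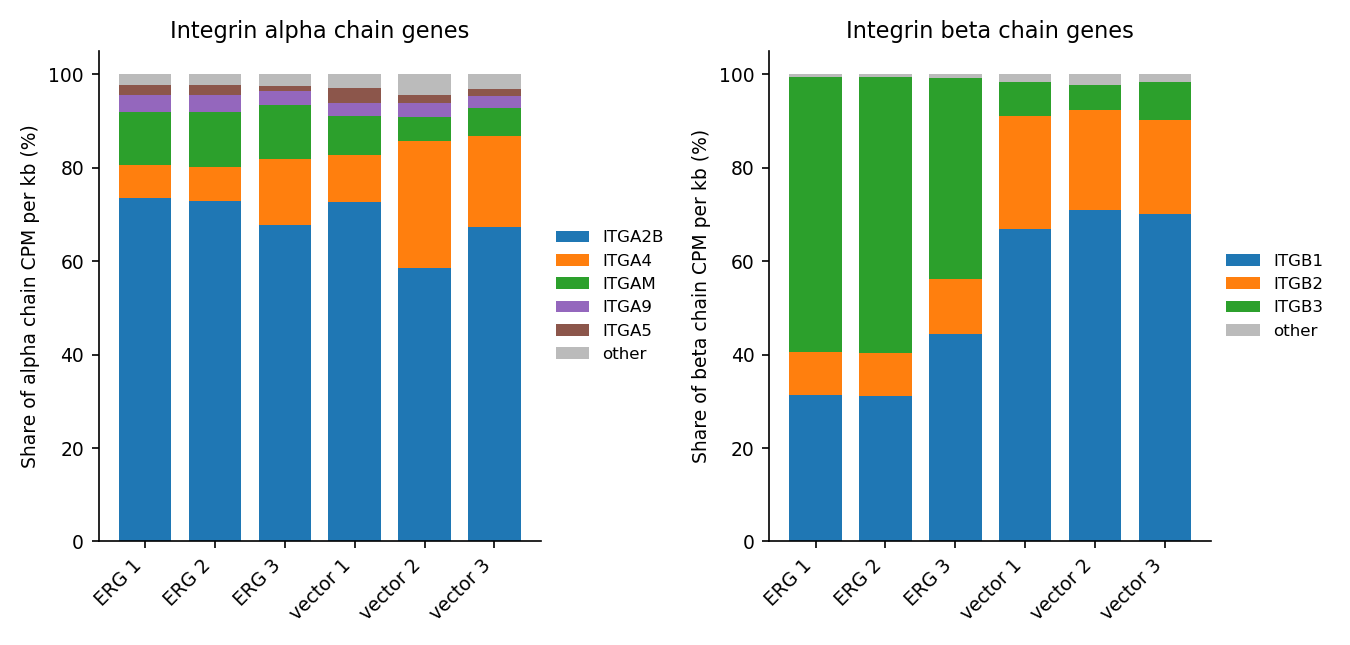
Shares (%) of each integrin chain gene in the summed CPM per kilobase of all 11 alpha chain genes (left) and 5 beta chain genes (right), a bar for each library, ERG left of vector. ITGB3 takes 43.0 to 59.2% of the beta chain sum in the ERG libraries and 5.34 to 8.11% in the vector libraries.

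Of 31 tested genes that activate, inhibit or bind integrins or tie them to actin, 2 rose with ERG and 0 fell with edgeR. DESeq2 called 7 higher and 2 lower. The median log2 was 0.20, and 13 were at an unadjusted edgeR p under 0.05, as were 15.9% of all tested genes. The 2 that rose with edgeR were ZYX, zyxin of focal adhesions, and DAB2, an endocytic adaptor that binds beta chain tails. ZYX was at 470 ± 59.6 CPM with ERG and 212 ± 12.9 CPM with vector (log2 1.15, SE 0.15, edgeR adjusted p = 0.0188). DAB2 was at 20.7 ± 5.51 CPM with ERG and 3.37 ± 1.35 CPM with vector (log2 2.63, SE 0.37, edgeR adjusted p = 0.0204). Both calls were lost without ERG replicate 1, ERG replicate 2, vector replicate 2 or vector replicate 3 (edgeR adjusted p between 0.065 and 0.119). FLNA and TLN1, which encode filamin A and talin, had the highest mean CPM of the list over all 6 libraries, a measure that pools the groups and does not allow for gene length, and by which a pair is named from each list. They differed by 0.28 and 0.54 on the log2 scale, with an edgeR adjusted p of 0.459 and 0.137 (DESeq2 adjusted p = 0.138 and 0.016).

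Of 23 integrin ligand genes 13 were in the count table and 12 were tested. FN1, which encodes fibronectin, and VCAM1 were among those not in the count table. Of the 12 tested, 0 rose and 0 fell with edgeR, and DESeq2 also called 0. Their median log2 was -0.11, and 1 was at an unadjusted edgeR p under 0.05. By pooled mean CPM LAMA5, a laminin chain (log2 -0.40), and ICAM5 (-0.23) are named, though per kilobase LAMA5 (6.65 CPM per kb with ERG and 8.74 with vector) was below ICAM5 (25.2 with ERG and 29.5 with vector).

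The next list held ligands, partners and sheddases of CD44, and also genes of hyaluronan synthesis, breakdown and other receptors. Of its 19 tested genes 1 rose and 0 fell with edgeR, and DESeq2 called 3 higher and 1 lower. The median log2 was 0.35, and 4 were at an unadjusted edgeR p under 0.05, as were 15.9% of all tested genes. The gene that rose was STAB1, stabilin-1, listed as one of the other receptors. It is a scavenger receptor of the hyaluronan receptor STAB2's family. STAB1 stood at 131, 127 and 61.4 CPM with ERG, against 30.5, 15.8 and 10.6 CPM with vector (log2 2.49, SE 0.44, edgeR adjusted p = 0.038). The call was lost without ERG replicate 1, ERG replicate 2, vector replicate 2 or vector replicate 3 (edgeR adjusted p between 0.108 and 0.169). MSN, moesin, and SRGN, the proteoglycan serglycin that CD44 can bind, had the highest pooled mean CPM and differed by 0.38 and 0.08 on the log2 scale, with an edgeR adjusted p of 0.321 and 0.838.

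No partner of E-cadherin in the next list passed the edgeR test. Of 11 tested catenin, nectin and other related genes 0 rose and 0 fell with edgeR, while DESeq2 called 1 higher and 1 lower. Their median log2 was -0.01, and 3 were at an unadjusted edgeR p under 0.05, as were 15.9% of all tested genes. No other cadherin was tested. CDH4 and CDH5 were in the count table but missed the filter. CDH5 had 19, 26 and 6 counts with ERG, against 1, 0 and 0 with vector. Named by pooled mean CPM are JUP, plakoglobin, at 247 ± 33.8 CPM with ERG and 159 ± 22.7 CPM with vector (log2 0.64, edgeR adjusted p = 0.115; DESeq2 adjusted p = 0.0217), and NECTIN2 (log2 0.44, edgeR adjusted p = 0.325). Of 14 genes known to repress CDH1, 7 were in the count table and tested. ZEB1, SNAI2, TWIST1 and TWIST2 were among those not in the count table. Of the 7 tested, 0 rose and 0 fell with edgeR, and DESeq2 called 1 higher and 1 lower. At an unadjusted edgeR p under 0.05 were 2. ZEB2, a repressor that binds E-boxes in the CDH1 promoter, was at 218, 240 and 197 CPM with ERG, against 145, 150 and 132 CPM with vector, without overlap and without passing (log2 0.62, SE 0.14, edgeR adjusted p = 0.0686; DESeq2 adjusted p = 0.00167). The corepressor CTBP1 differed by -0.11 on the log2 scale (edgeR adjusted p = 0.679).

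**Figure D4:**
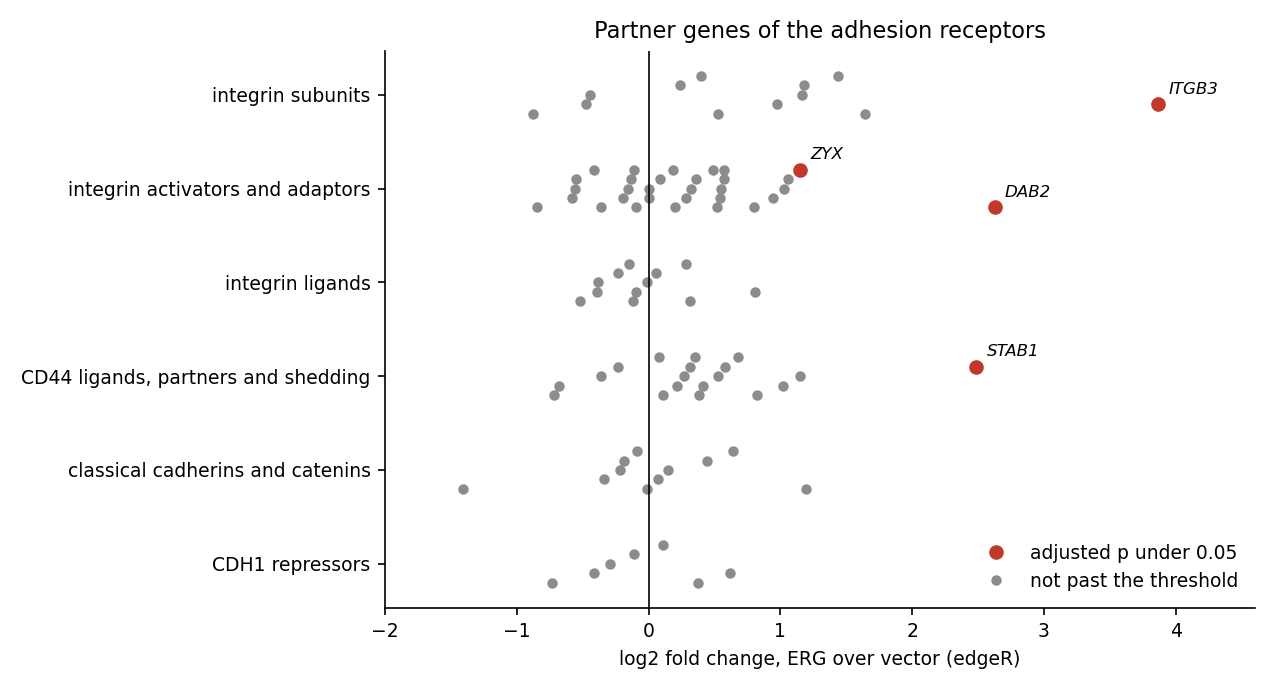
Fitted log2 fold change, ERG over vector (horizontal axis), of the tested genes of 6 lists (vertical axis), without CD44, CDH1, ITGA4, ITGA5, ITGB1 and ITGB2. A point is a gene, red where the edgeR adjusted p is under 0.05. ITGB3, DAB2, STAB1 and ZYX are the red points, all to the right of 0.

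The genes whose profile over the 6 libraries lay closest to that of CD44 were AQP10, CD34, PRR5L, PLEKHG3 and F2R. Likeness was the root mean square difference of log2 CPM, each gene centred on its own mean, among 9910 protein-coding genes. It was 0.0968 for AQP10, an aquaporin, and 0.113 for CD34, a marker of blood stem and progenitor cells, against a median of 1.04. In the vector libraries AQP10 was at only 3.96, 1.67 and 2.74 CPM and PRR5L at 5.63, 2.66 and 4.21 CPM. Their places in this order therefore rest on few counts. CD34 stood at 184, 182 and 143 CPM with ERG, against 59.2, 25.1 and 59.7 CPM with vector. PRR5L (0.118) lies on the same chromosome as CD44, with their starts 1157 kb apart. The closest to CDH1 were IGFBP5 (0.248), GPT (0.275), SPTBN4 (0.298), MUC1 (0.329) and SYNGR1 (0.337), against a median of 1.20. MUC1, a membrane mucin, was at 7.86 ± 2.09 CPM with ERG and 29.5 ± 15.3 CPM with vector. CDH1 thus had no neighbour as near as those of CD44.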

How the data were processed

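Polyadenylated RNA of F36P cells was sequenced in 3 ERG and 3 vector libraries. Per the submitters' processing notes edgeR 3.32.1 and the build hg38 had been used; aligner, counting tool, annotation and strandedness are not given in the sources used here. The deposited table names CPM but holds whole-number counts, whose column totals differ between libraries, and the second-highest CPM of every gene was at least 1.01. The test fixed for counts was therefore used. Control columns were assigned to vector as the only group besides ERG, and 0 columns were left unused.

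The 14203 of 14821 genes that reached 1 CPM in 3 or more libraries were tested with edgeR 4.0.16 in R 4.3.3 (TMM, quasi-likelihood, two-sided, Benjamini-Hochberg, threshold 0.05). The fit was tested on simulated counts of independent libraries. These did not have the library sets of the real data, so that test does not cover them. The SE is the log2 fold change divided by the square root of F. Differences of log2 CPM used a prior count of 2, which shrinks low values. Lengths and positions are from GENCODE release 29. Totals limit precision for genes with few counts.

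The 6 genes, the lists and the library sets were chosen with earlier results of these data known. Named genes were the 6, ERG, every other tested integrin subunit, from each other list up to 5 genes past the threshold and the 2 of highest mean CPM over the 6 libraries, and the 5 most similar protein-coding genes (mean of at least 5 CPM) for CD44 and for CDH1. Alternatives were DESeq2 1.42.0, RLE size factors, no or a stricter filter, a replicate block, a library set term, summing ERG replicates 1 and 2, and leaving out each library. Stromal markers (2 of 9 analysed) summed to 5.97 to 6.58 CPM with ERG and 3.73 to 9.29 CPM with vector. Lymphoid markers (3 of 10) summed to 24.8 to 44.2 CPM with ERG and 13.3 to 28.7 CPM with vector. Monocyte and granulocyte markers (3 of 11) summed to 92.6 to 207 CPM with ERG and 103 to 254 CPM with vector. That sum joins LYZ, lower in every ERG library (log2 -0.81), and CSF3R, which differed the other way with overlap (log2 1.77). Neither passed (edgeR adjusted p = 0.227 and 0.305), and CSF1R was not tested.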

Additional observations from a re-analysis of the deposited data

How the results depend on the processing

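Under all alternatives run the log2 fold change kept its sign for CD44, CDH1, ITGA5 and ITGB2, while those of ITGA4 and ITGB1 changed sign. Without vector replicate 1, ITGA5 (1.33 against 0.62, SE 0.58) and ITGB2 (-0.02 against -0.35, SE 0.28) moved by more than their SE. So did CDH1 without vector replicate 2 (-2.04 against -2.34, SE 0.27). With libraries left out in turn it ranged from 1.55 to 2.06 for CD44, -2.53 to -2.04 for CDH1, -0.23 to 0.04 for ITGA4, 0.34 to 1.33 for ITGA5, -0.30 to 0.04 for ITGB1 and -0.54 to -0.02 for ITGB2. With the library set term ITGA4 was at 0.08, ITGA5 at 0.05, ITGB1 at -0.33 and ITGB2 at -0.57. Counts of calls depended on the libraries. The 209 higher and 104 lower genes became 596 and 410 with DESeq2, 1022 and 847 with the library set term, and 0 and 0 with ERG replicates 1 and 2 summed (edgeR, 1277 genes at an unadjusted p under 0.05). With 1 library left out they ranged from 0 to 309 higher and 0 to 139 lower, being 0 without ERG replicate 1 or 2 (edgeR, 1278 and 1256 genes at an unadjusted p under 0.05), 19 in all without vector replicate 2 and 51 without vector replicate 3. Of the 6 genes, 3 passed with the library set term, at least 1 of them an integrin gene, where 1869 of all 14203 tested genes did. The sets were seen in these same libraries and the 6 genes were chosen on this contrast. Calls with that term are therefore a description and not independent support. In the summed setting 0 of the 6 passed, and 0 to 2 did with a library left out. The lists are in the order integrin subunits, integrin regulators and adaptors, ligands, CD44 and hyaluronan genes, catenins and nectins, and CDH1 repressors. They held 12, 31, 12, 19, 11 and 7 tested genes. The set term gave 4, 14, 1, 6, 4 and 2 calls, against 1869 over all 14203 tested genes. DESeq2 gave 3, 9, 0, 4, 2 and 2, and the summed setting gave 0 in each. With a library left out they ranged from 0 to 3, 0 to 3, 0 to 0, 0 to 2, 0 to 1 and 0 to 2. Sign changes among other named genes were ITGA7 at -0.0006 with the set term, ITGB4 with a library left out (-0.83 to 0.25, positive without vector replicate 1) and SRGN with a library left out (-0.029 to 0.25, negative without vector replicate 2), none of them called. The cause was not tested.

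Whether the replicate numbers pair the libraries was not settled. The correlations of the deviations of same-numbered libraries from their group means were 0.628, -0.285 and 0.589 for replicates 1, 2 and 3. ERG replicate 2 went with vector replicate 1 at 0.588, and ERG replicate 3 with vector replicate 2 at 0.352. Deviations within a group balance out, so these correlations are not independent of one another. With the replicate number as a block 582 genes were higher and 323 lower, and the lists in the same order had 4, 6, 0, 4, 2 and 2 calls.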

Other observations

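Values of a few partner genes, chosen after they were seen, ran in unlike directions within 1 protein family. EZR, ezrin, stood at 68.3, 67.3 and 78.4 CPM with ERG, against 102, 140 and 101 CPM with vector, while MSN, moesin, stood at 1189, 1260 and 1394 CPM with ERG, against 875, 992 and 1082 CPM with vector. Both encode linkers between CD44 and actin, both had groups that did not overlap, and neither passed with edgeR (log2 -0.68 and 0.38, edgeR adjusted p = 0.0958 and 0.321). With DESeq2 EZR passed (adjusted p = 0.00898) and MSN did not (adjusted p = 0.129). RDX, radixin, the third of the family, was at 86.6 ± 4.45 CPM with ERG and 69.8 ± 11.4 CPM with vector (edgeR adjusted p = 0.371).

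NECTIN1, a cell contact protein, stood at 14.6, 14.6 and 25.4 CPM with ERG, against 26.2, 64.6 and 54.2 CPM with vector, without passing (log2 -1.41, SE 0.37, edgeR adjusted p = 0.11; DESeq2 adjusted p = 0.00499). TCF3, an E-box factor counted among the CDH1 repressors, stood at 88.8, 86.3 and 129 CPM with ERG, against 138, 191 and 177 CPM with vector (log2 -0.73, edgeR adjusted p = 0.134; DESeq2 adjusted p = 0.0227). FERMT3, the blood cell kindlin that activates integrins, was at 736 ± 166 CPM with ERG and 360 ± 132 CPM with vector (edgeR adjusted p = 0.136; DESeq2 adjusted p = 0.0158).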
